A study of Mus musculus with 16 samples.

Results

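The genes described here encode 10 enzymes that convert, inactivate or tag steroid hormones: the steroid 5α-reductases *Srd5a1*, *Srd5a2* and *Srd5a3*, the 17β-hydroxysteroid dehydrogenases *Hsd17b2*, *Hsd17b4*, *Hsd17b11* and *Hsd17b12*, the 11β-hydroxysteroid dehydrogenases *Hsd11b1* and *Hsd11b2*, and the oestrogen sulphotransferase *Sult1e1*. They were chosen by name, as 10 of the 31274 genes in the table. All 10 had a mean above 1 FPKM in at least 1 group, and so all were among the 15988 genes tested. *Hsd17b2* passed that filter through WT-DES alone, with means under 1 FPKM in the other groups, so its call as higher there is partly fixed by the filter. FPKM counts sequenced fragments after scaling to transcript length and to the total mapped, so that levels can be ordered between genes. Its sum still differed, at 375207 to 437619 in WT-DES samples and 479045 to 652708 in the others. Differences between samples therefore depend in part on scaling. RNA was sequenced from seminal vesicles (SVs), the androgen-dependent glands that supply most of the fluid of mouse semen, of C57BL/6 males at week 5, which is puberty.

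There were 4 groups of 4 samples. WT-veh males were wild type, from dams bought in, and received corn oil under the skin on days 1 to 5 after birth. WT-DES males were wild type and received 2 µg of diethylstilbestrol (DES), a synthetic oestrogen, per pup per day on the same days in the same oil. αERKO-veh and αERKO-DES males lacked a working oestrogen receptor α (ERα) because its gene, *Esr1*, was disrupted in every cell. They came from heterozygous parents, and received the oil or the same course of DES. The SVs had been cut free of the neighbouring anterior prostate before freezing. The study's methods describe RNA from individual mice for 3 of the groups and from pools of mice for WT-DES, but list 3 such pools against 4 sequenced samples. The labels do not say which animals went into a sample, so the p-values below measure the spread between samples, which may be partly technical.

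Testosterone reaches the SV from the blood and is reduced in the tissue to dihydrotestosterone, the stronger androgen, by the 5α-reductases. The 17β-hydroxysteroid dehydrogenases switch androgens and oestrogens between their active 17-hydroxy and weaker 17-keto forms, although several members of the family work mainly on fatty acids. The 11β enzymes do the same for glucocorticoids, type 1 regenerating the active hormone and type 2 removing it, and sulphation by *Sult1e1* leaves oestradiol unable to bind its receptor.

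*Esr1* separated the genotypes in the way the labels state. It stood at 4.43, 4.55, 3.70 and 2.81 FPKM in WT-veh and 8.74, 19.64, 12.99 and 15.71 in WT-DES. In the vehicle-treated αERKO samples it stood at 1.30, 1.59, 1.75 and 1.43, and in the DES-treated ones at 0.91, 1.15, 1.51 and 1.64. The SV secretory genes *Svs1* to *Svs6* and *Pate4* summed to between 30143 and 63298 FPKM in the samples of the other groups and to between 2436 and 7951 in WT-DES. Prostate markers were present as well, at 3215 to 9416 FPKM in the other groups and 23.0 to 377 in WT-DES. In WT-DES the levels of leukocyte markers (10 of 10 genes called higher), fibroblast markers (6 of 6) and endothelial markers (5 of 5) were raised, and those of smooth muscle (5 of 6 called lower) and luminal epithelium (4 of 5) were reduced. Of the remaining marker lists, 2 of 4 basal epithelial genes were called higher, 5 of 8 adipose genes higher, 3 of 9 skeletal muscle genes lower, 4 of 4 prostate genes lower, and neither of the 2 tested markers of steroid-making glands was called. WT-DES sample 1 stood apart from its group. Its median correlation with the other samples of the group, over all genes on the log2 scale, was 0.971 against 0.985 for each of the others, and its smooth muscle markers summed to 3580 FPKM against 791 to 1256. Because whole tissue was sequenced, fewer cells of a type and less RNA per cell cannot be told apart in any of the values below.

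Start-site sequences were at hand for 7 of the 10 genes, from RefSeq on build GRCm38.p6. The 250 bases before the annotated start are shown for the 4 genes called differentially expressed between the wild-type groups that had an entry, so that the pair of reductase promoters can be set beside that of the glucocorticoid-regenerating enzyme and that of the sulphotransferase. *Srd5a1* lies at chr13:69611464-69611713, *Srd5a2* at chr17:74047861-74048110, *Hsd11b1* at chr1:193242361-193242610 and *Sult1e1* at chr5:87591612-87591861, all on the minus strand and written 5′ to 3′. The *Hsd11b1* window lies before a start inside the gene model (193221634 to 193264075, 7 transcripts). The start farthest upstream of *Hsd11b1* was not searched. Capitals mark the GC box (GGGCGG, either strand) and a single arm of the oestrogen response element (GGTCA, either strand, so that TGACC is the same site read from the other side).
Srd5a1: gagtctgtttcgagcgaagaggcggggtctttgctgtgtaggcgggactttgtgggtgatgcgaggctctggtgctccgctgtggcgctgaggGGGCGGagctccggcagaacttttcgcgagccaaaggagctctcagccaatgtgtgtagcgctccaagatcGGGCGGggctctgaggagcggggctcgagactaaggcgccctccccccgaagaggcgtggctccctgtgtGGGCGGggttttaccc
Srd5a2: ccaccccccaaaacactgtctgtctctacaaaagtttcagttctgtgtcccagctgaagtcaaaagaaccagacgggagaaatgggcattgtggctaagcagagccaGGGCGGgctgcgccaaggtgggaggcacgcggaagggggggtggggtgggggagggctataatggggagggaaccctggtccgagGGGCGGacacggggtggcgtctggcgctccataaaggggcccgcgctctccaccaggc
Hsd11b1: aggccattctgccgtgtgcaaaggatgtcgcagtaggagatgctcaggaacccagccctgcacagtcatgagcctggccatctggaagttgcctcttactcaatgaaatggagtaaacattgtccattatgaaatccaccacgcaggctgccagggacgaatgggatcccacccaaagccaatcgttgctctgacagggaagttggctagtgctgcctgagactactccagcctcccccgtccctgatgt
Sult1e1: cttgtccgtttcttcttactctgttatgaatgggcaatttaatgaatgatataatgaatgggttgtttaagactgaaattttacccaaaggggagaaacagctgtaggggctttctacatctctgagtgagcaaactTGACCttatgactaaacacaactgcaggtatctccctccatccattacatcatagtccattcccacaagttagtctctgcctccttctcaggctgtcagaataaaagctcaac
*Srd5a1* held 3 GC boxes, which begin 157, 86 and 16 bases before the start, and *Srd5a2* held 2, at 143 and 58 bases. *Hsd11b1* and *Sult1e1* held none. *Sult1e1* was the 1 gene of the 7 with an oestrogen element arm, 113 bases before its start. GC boxes were present in 5 of the 7 windows and in 32.7% of all 32851 promoters of this length, and the oestrogen element arm in 35.2% of all. The complete oestrogen response element (GGTCANNNTGACC, which contains the arm on both strands) was found in none of the 7 windows and in 0.0639% of all promoters. The palindrome of the glucocorticoid response element, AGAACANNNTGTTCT, was in none of the 7 and in 0.00913% of all. Its arm AGAACA alone (16.1% of all) and the TATA box TATAAA (12.4%) were also found in none. The windows differed in base composition. *Srd5a1* had 64.8% G + C and 20 CpG pairs, *Srd5a2* 63.2% and 12, *Hsd11b1* 54.4% and 6, and *Sult1e1* 40.8% and 1, beside a median of 52.4% and 6 over all promoters. These are matches of letters and not measured binding, and distal elements were not searched.

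DES given to wild-type pups changed 5 of the 10 genes at week 5. A gene was called a differentially expressed gene (DEG) at a Benjamini-Hochberg adjusted p of at most 0.05 over all tested genes in limma, provided that the group means differed at least 1.5-fold and that 1 of them was above 1 FPKM. *Srd5a1*, *Hsd17b2* and *Hsd11b1* rose, *Srd5a2* and *Sult1e1* fell, and the other 5 were not called. Between these groups 52.7% of all tested genes were DEGs, 28.9% higher and 23.9% lower, so 5 of 10 enzymes is near the background. The median size of the log2 change, without its sign, was 0.63 over the enzymes and 0.59 over all tested genes. Without WT-DES sample 1 the count was again 5, with *Hsd11b2* called and *Srd5a2* no longer called.

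**Figure D1:**
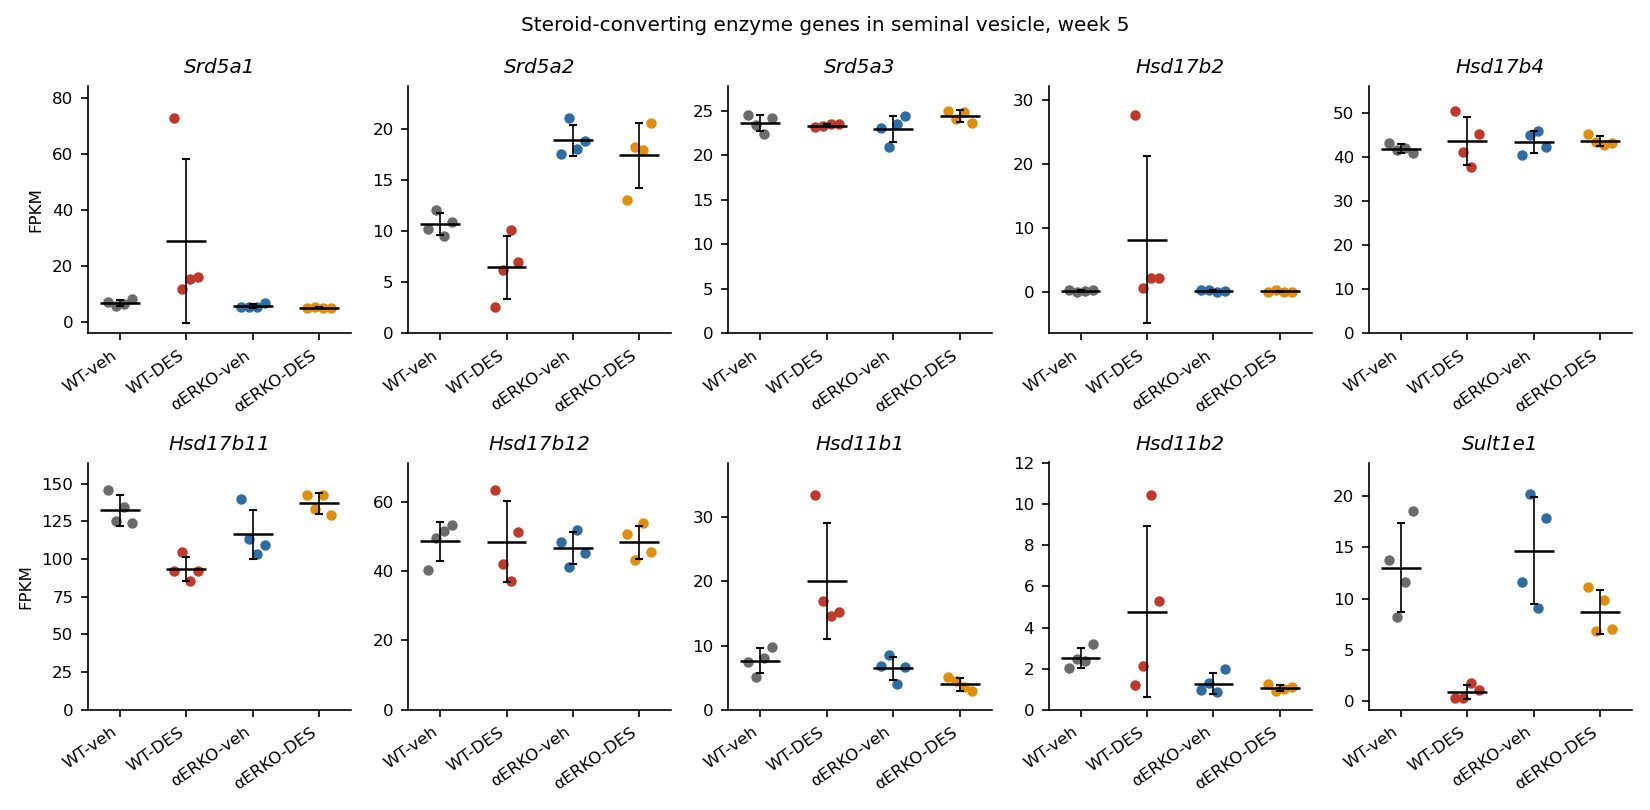
FPKM (vertical axes, a separate scale for each gene) of the 10 enzyme genes in the 4 groups, 1 point per sample in replicate order, with the group mean (line) and SD (bar, n = 4). WT-DES sample 1 gives the highest point of *Srd5a1* (72.98), *Hsd17b2* (27.57) and *Hsd11b1* (33.47), and every WT-DES sample of *Sult1e1* lies under 2 FPKM.

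Both classical 5α-reductases were DEGs and they moved apart. *Srd5a1*, the type 1 enzyme, was at 7.06, 5.73, 6.35 and 8.12 FPKM in WT-veh and at 72.98, 11.75, 15.34 and 16.01 in WT-DES. The groups did not overlap, but sample 1 held more than 4 times the level of any other WT-DES sample. The mean rose from 6.82 ± 1.03 to 29.0 ± 29.4 FPKM (SD, n = 4 each), 4.26-fold, with a difference of 1.54 on the log2(FPKM + 1) scale (standard error 0.38, limma adjusted p = 0.00188). Without sample 1 the mean of the other 3 was 14.4 ± 2.29, 2.11-fold over WT-veh, and the log2 difference was 0.97 (limma adjusted p = 4.17e-06).

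*Srd5a2*, the type 2 enzyme that makes most of the dihydrotestosterone of the male tract, was at 10.19, 12.08, 9.58 and 10.91 FPKM in WT-veh and at 2.56, 6.18, 10.13 and 7.03 in WT-DES. Of the WT-DES samples, 3 lay under every WT-veh sample and the third lay among them. The mean fell from 10.7 ± 1.07 to 6.48 ± 3.11 FPKM (SD, n = 4 each), a log2 difference of −0.75 (standard error 0.25, limma adjusted p = 0.0124). That call was sensitive. Without sample 1 the log2 difference was −0.43 (limma adjusted p = 0.0193) and the fold missed the threshold, and it was −0.37 (limma adjusted p = 0.245) when samples were scaled to equal totals without the 20 most abundant genes. The call was also lost after the correction for transcript length (−0.47, limma adjusted p = 0.127) and when only the WT groups were fitted (−0.75, limma adjusted p = 0.0571). Luminal epithelial markers summed to 1318 to 1446 FPKM in WT-veh and to 683 to 988 in WT-DES (4 of 5 called lower), and their part in the fall was not tested.

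The order of the pair within a sample turned over. In all 4 WT-veh samples *Srd5a2* was the higher, with log2 ratios of *Srd5a1* to *Srd5a2*, each with 1 FPKM added, of −0.47, −0.96, −0.53 and −0.39. In all 4 WT-DES samples *Srd5a1* was the higher, at 4.38, 0.83, 0.55 and 1.08. Both αERKO groups lay on the side of WT-veh and beyond it, at −1.51, −1.78, −1.56 and −1.34 with vehicle and −1.20, −1.57, −1.66 and −1.87 with DES. The sign of a ratio within a sample does not depend on how samples are scaled to each other, although its size does, since 1 FPKM is added.

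**Figure D2:**
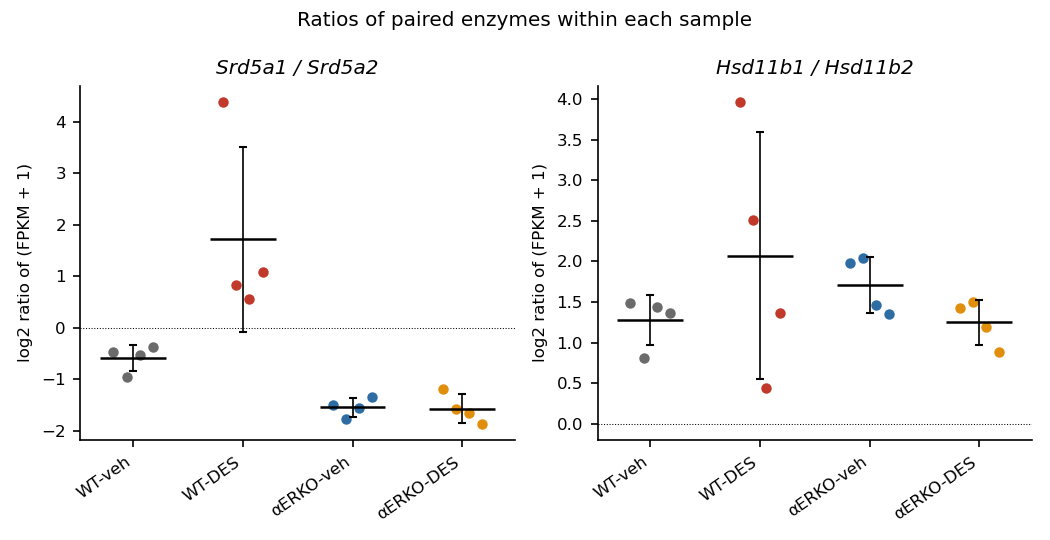
Log2 ratio of FPKM + 1 for *Srd5a1* to *Srd5a2* (left) and *Hsd11b1* to *Hsd11b2* (right) in each sample, with group mean (line) and SD (bar, n = 4); the dotted line marks equal levels. The reductase ratio is above 0 in each WT-DES sample and below 0 in each sample of the other groups, whereas the 11β ratio in WT-DES spans 0.44 to 3.96.

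*Srd5a3*, which reduces polyprenol for protein glycosylation and only weakly acts on steroids, was at 24.52, 23.41, 22.43 and 24.20 FPKM in WT-veh and at 23.13, 23.29, 23.49 and 23.48 in WT-DES. It had the smallest spread of the enzymes among the WT-DES samples. Its 16 values ran from 20.88 to 25.02, and the 95% confidence interval of the difference between WT-DES and WT-veh was −0.13 to 0.10 on the log2 scale (limma adjusted p = 0.786).

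Of the 17β-hydroxysteroid dehydrogenases 1 was a DEG. *Hsd17b2*, the oxidative enzyme that turns testosterone and oestradiol into their weaker 17-keto forms, was at 0.26, 0, 0.17 and 0.33 FPKM in WT-veh and at 27.57, 0.63, 2.23 and 2.15 in WT-DES. Every WT-DES sample was above every WT-veh sample, yet the second was at 0.63 FPKM and the first at more than 10 times the next. The log2 difference was 1.98 (standard error 0.59, limma adjusted p = 0.00684), and the ratio of the means was 42.9. With only these groups in the fit the call was lost (limma adjusted p = 0.0508). Without sample 1 the mean of the other 3 was 1.67 ± 0.902 FPKM, the ratio 8.79 and the log2 difference 1.11 (limma adjusted p = 0.000208). Basal epithelial markers summed to 533 FPKM in that sample and to 248 to 418 in the other 3, and their part in its *Hsd17b2* level was not tested.

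*Hsd17b11*, a dehydrogenase of lipid droplets that also oxidises androstanediol, had the highest level of the 10 enzymes in every group. Its values were 146.09, 125.12, 134.76 and 124.03 FPKM in WT-veh and 92.28, 104.42, 85.44 and 92.13 in WT-DES. The groups did not overlap and the log2 difference was −0.50 (standard error 0.09, limma adjusted p = 0.000188), but the mean fell 1.42-fold, short of the 1.5-fold needed for a call.

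*Hsd17b4*, the peroxisomal enzyme that shortens fatty acid chains and inactivates oestradiol, was at 43.36, 41.62, 42.11 and 40.90 FPKM in WT-veh and at 50.49, 41.18, 37.73 and 45.31 in WT-DES, with a confidence interval of −0.11 to 0.20 (limma adjusted p = 0.572). *Hsd17b12*, the ketoacyl reductase of fatty acid elongation, was at 40.36, 49.42, 51.41 and 53.13 FPKM in WT-veh and at 63.46, 41.91, 37.01 and 51.20 in WT-DES, with a confidence interval of −0.33 to 0.27 (limma adjusted p = 0.871). WT-DES samples lay on both sides of WT-veh for these 2 genes, and sample 1 was the highest for each.

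*Hsd11b1*, which regenerates active corticosterone and draws NADPH from the neighbouring enzyme H6pd in the endoplasmic reticulum, was at 7.50, 5.12, 8.07 and 9.80 FPKM in WT-veh and at 33.47, 16.99, 14.57 and 15.22 in WT-DES. Here too the groups did not overlap and sample 1 was the highest. The mean rose from 7.62 ± 1.93 to 20.1 ± 9.0 FPKM (SD, n = 4 each), 2.63-fold, with a log2 difference of 1.24 (standard error 0.26, limma adjusted p = 0.000525). Without sample 1 the rise was 2.05-fold and the log2 difference 0.97 (limma adjusted p = 0.000975).

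*Hsd11b2*, which inactivates corticosterone and so shields the mineralocorticoid receptor, was at 2.03, 2.48, 2.35 and 3.19 FPKM in WT-veh and at 1.21, 2.15, 10.45 and 5.28 in WT-DES. The WT-DES samples fell on both sides of WT-veh, and sample 1, the highest for *Hsd11b1*, was the lowest for *Hsd11b2*. The log2 difference of 0.44 was not called (95% confidence interval −0.34 to 1.22, limma adjusted p = 0.286). Without sample 1 it was 0.81 and was called (limma adjusted p = 0.0285), and with sample weights it was 0.92 and was called (limma adjusted p = 0.0131). The log2 ratio of *Hsd11b1* to *Hsd11b2*, each with 1 FPKM added, was 1.49, 0.81, 1.44 and 1.37 in WT-veh and 3.96, 2.51, 0.44 and 1.37 in WT-DES, so the balance of the 2 enzymes differed more among WT-DES samples than between the group means of 1.28 and 2.07.

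*Sult1e1* had the largest fall of the 10 enzymes. It was at 13.74, 8.18, 11.61 and 18.54 FPKM in WT-veh and at 0.26, 0.30, 1.73 and 1.06 in WT-DES. The lowest WT-veh sample was above 4 times the highest WT-DES sample. The mean fell from 13.0 ± 4.34 to 0.838 ± 0.70 FPKM (SD, n = 4 each), 15.5-fold, with a log2 difference of −2.96 (standard error 0.30, limma adjusted p = 4.81e-07), and the log2 difference was −2.80 without sample 1 (limma adjusted p = 1.75e-06). The ratio of the means, 0.0643 with all samples, was 0.0415 without WT-DES sample 3. The sum of the 9 skeletal muscle markers was lower in the same group, at 39.4 to 337 FPKM against 738 to 2064 in WT-veh. Only 3 of the 9 were called lower. Averaged on the log2 scale, the 9 stood at 2.76 in WT-DES sample 1, close to the 2.78 of WT-veh sample 2. The lowest WT-DES average was 1.62 and the highest WT-veh average 6.94. The part of these markers in the *Sult1e1* level was not tested.

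Markers of fat moved beside 2 of these genes. The 8 adipose markers (*Adipoq*, *Plin1*, *Cidec*, *Lep*, *Retn*, *Cfd*, *Fabp4* and *Lipe*) summed to 710, 241, 794 and 1151 FPKM in WT-veh and to 1228, 1560, 914 and 2154 in WT-DES. In αERKO mice they summed to 442, 1140, 106 and 475 FPKM with vehicle and to 71.8, 77.8, 51.4 and 34.0 with DES. *Hsd11b1* was lowest in the sample with the fewest adipose transcripts in each of the vehicle groups, and lower in αERKO-DES, with the lowest adipose sums of all, than in the other groups on average. WT-DES sample 3, with an adipose sum of 914 FPKM, held 14.57 FPKM of *Hsd11b1*, whereas WT-veh sample 4 and αERKO-veh sample 2, with sums of 1151 and 1140, held 9.80 and 8.46. *Sult1e1* was also lowest in the vehicle samples with the lowest adipose sum and highest in those with the highest, 18.54 and 20.17 FPKM, but it was under 2 FPKM in all 4 WT-DES samples, whose adipose sums were 914 FPKM or more. The part of fat in the level of either gene was not tested.

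**Figure D3:**
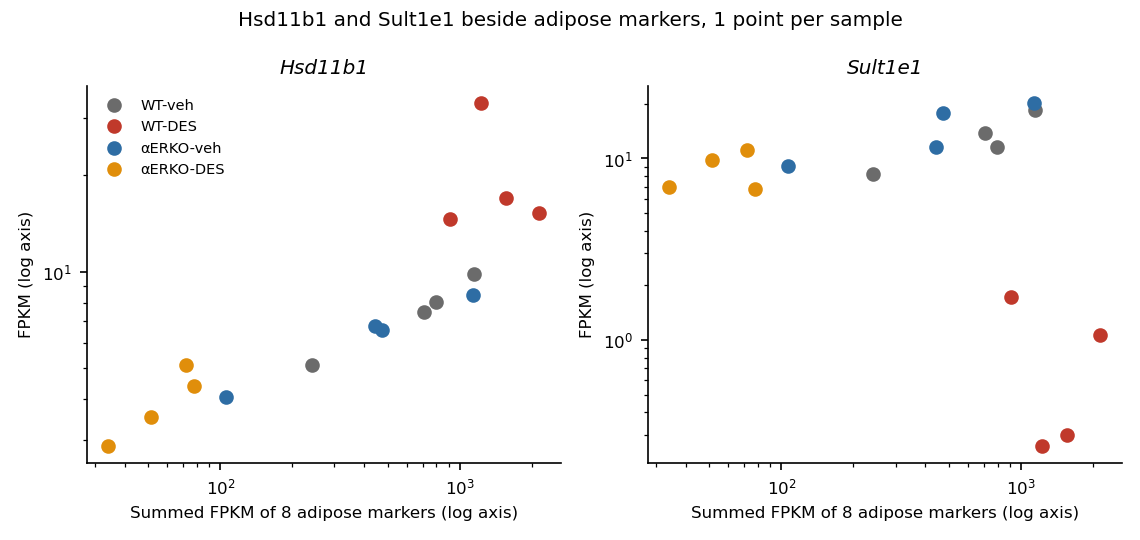
FPKM of *Hsd11b1* (left) and *Sult1e1* (right) against the summed FPKM of 8 adipose markers, both on log axes, with 1 point per sample. The 4 WT-DES samples stand above the other samples for *Hsd11b1* and below them for *Sult1e1*, at adipose sums of 914 to 2154.

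Loss of ERα without DES changed 1 enzyme gene in the fit of all 16 samples, and 2 when only the vehicle groups were fitted. In αERKO-veh relative to WT-veh *Srd5a2* was higher in 4 of 4 samples, at 17.58, 21.13, 18.12 and 18.84 FPKM. The mean was 18.9 ± 1.56 against 10.7 ± 1.07 FPKM (SD, n = 4 each), 1.77-fold higher, with a log2 difference of 0.77 (standard error 0.25, limma adjusted p = 0.0334). Across all tested genes 7.12% were DEGs in this comparison. The adjusted p passed the threshold narrowly and rose to between 0.0551 and 0.0954 when any 1 of WT-veh samples 1, 3 and 4 or αERKO-veh samples 2, 3 and 4 was left out, while the log2 difference stayed between 0.72 and 0.79. Without WT-DES sample 1, which is in neither group but enters the shared estimate of spread, the adjusted p was 0.00488. *Hsd11b2*, at 0.97, 1.30, 0.84 and 1.97 FPKM in αERKO-veh, lay under all 4 WT-veh samples without reaching the threshold (log2 difference −0.64, 95% confidence interval −1.42 to 0.13, limma adjusted p = 0.206). With only the vehicle groups in the fit *Hsd11b2* was called as well (limma adjusted p = 0.0282), beside 1177 of all tested genes.

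The other enzymes were not called in αERKO-veh. *Srd5a1* was at 5.54, 5.43, 5.47 and 6.82 FPKM, *Hsd11b1* at 6.75, 8.46, 4.07 and 6.60, and *Sult1e1* at 11.59, 20.17, 9.10 and 17.89, each overlapping WT-veh. The intervals of their log2 differences from WT-veh were −1.0 to 0.62, −0.76 to 0.34 and −0.48 to 0.79. They use the spread shared by all 4 groups. *Srd5a1* had an SD of 29.4 FPKM in WT-DES, against 1.03 in WT-veh and 0.672 in αERKO-veh. *Hsd17b2* was listed at 0.25, 0.25, 0 and 0.16 FPKM. *Hsd17b11*, at 140.01, 113.29, 103.29 and 109.28 FPKM, had an interval of −0.39 to 0.01. *Srd5a3* (20.88 to 24.40 FPKM), *Hsd17b4* (40.58 to 45.96) and *Hsd17b12* (41.02 to 51.78) all overlapped WT-veh. Skeletal muscle markers summed to between 761 and 2439 FPKM in αERKO-veh and to 738 to 2064 in WT-veh, with 4 of the 9 called higher. Of the endothelial markers 2 of 5 were called higher (median log2 difference 0.38), and 1 of 10 leukocyte markers was called lower (median −0.05). The part of these markers in the enzyme values was not tested.

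DES in αERKO mice gave no call among the 10 enzymes in limma, beside 1.49% of all tested genes. By the unadjusted p alone (0.05 or less) there were 3, *Hsd17b11*, *Hsd11b1* and *Sult1e1*, beside 4042 of all 15988 tested genes. With sample weights 2 were called, *Hsd11b1* and *Sult1e1*, beside 1119 of all tested genes. *Sult1e1* was at 11.09, 6.79, 9.82 and 6.99 FPKM in αERKO-DES, lower on average than in αERKO-veh with overlapping samples (log2 difference −0.66, 95% confidence interval −1.30 to −0.03, limma adjusted p = 0.183). *Hsd11b1* was at 5.12, 4.42, 3.53 and 2.86 FPKM (log2 difference −0.57, interval −1.12 to −0.02, limma adjusted p = 0.184). The adipose markers fell beside these 2 genes, 5 of 8 being called lower in this comparison, as did skeletal muscle markers, 6 of 9 being called lower (761 to 2439 FPKM summed with vehicle, 595 to 857 with DES). Also called lower were 1 of 6 fibroblast markers (median log2 difference −0.49), 1 of 5 endothelial markers (−0.25) and 1 of 4 prostate markers (−1.89). Their part in these values was not tested.

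For *Srd5a1* the αERKO-DES samples were at 5.13, 5.46, 4.99 and 4.94 FPKM and for *Srd5a2* at 13.05, 18.23, 17.96 and 20.66, with log2 differences from αERKO-veh of −0.15 (interval −0.96 to 0.66) and −0.12 (interval −0.65 to 0.40). These intervals also use the spread shared with WT-DES. The SD of *Srd5a1* was 0.672 FPKM in αERKO-veh and 0.234 in αERKO-DES, against 29.4 in WT-DES. *Hsd17b11* was at 142.71, 133.05, 142.78 and 129.22 FPKM, a log2 difference of 0.24 (interval 0.04 to 0.44, limma adjusted p = 0.132). *Hsd11b2* was at 1.27, 0.92, 0.99 and 1.09 FPKM and *Hsd17b2* was listed at 0, 0.25, 0 and 0.04. *Srd5a3* (23.62 to 25.02 FPKM), *Hsd17b4* (42.92 to 45.24) and *Hsd17b12* (43.20 to 53.74) overlapped αERKO-veh.

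The difference between the genotypes in the response to DES was tested directly as an interaction, taking the log2 effect of DES in αERKO from its log2 effect in WT. It was called for 5 of the 10 enzymes, and for 56.4% of all tested genes. The difference was 1.69 for *Srd5a1* (standard error 0.54, limma adjusted p = 0.0109) and 1.81 for *Hsd11b1* (standard error 0.36, limma adjusted p = 0.000457), both of which rose with DES in WT. It was −2.29 for *Sult1e1* (standard error 0.42, limma adjusted p = 0.000205). For *Hsd17b2* it was 2.10 (standard error 0.83, limma adjusted p = 0.034), close to the threshold. That call was lost after quantile normalization (1.77, limma adjusted p = 0.103). It was also lost when any 1 of 8 samples was left out (WT-veh samples 2 and 3, αERKO-veh samples 1, 2 and 4, and αERKO-DES samples 1, 3 and 4), with limma adjusted p from 0.0503 to 0.0566. Without WT-DES sample 1 the 4 values, in the order given, were 1.12, 1.54, −2.14 and 1.23, and each was called. Most marker lists moved in the interaction as well. Adipose (8 of 8, median 4.36), fibroblast (6 of 6, 1.76), leukocyte (9 of 10, 2.00), endothelial (5 of 5, 1.52) and basal markers (3 of 4, 1.12) were called higher, and SV secretory (8 of 8, −3.98), smooth muscle (5 of 6, −1.62), luminal (4 of 5, −1.08) and prostate markers (2 of 4, −3.47) lower. Of 9 skeletal muscle markers 4 were higher and 2 lower. Their part in these values was not tested.

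*Hsd17b11* was the fifth, with a difference of −0.74 (standard error 0.13, limma adjusted p = 0.000149) that combined its lower level in WT-DES and its higher level in αERKO-DES. It was the 1 call whose sign depended on scaling: it was 0.06 after quantile normalization, −0.18 with equal totals and −0.50 after the length correction, none of them called. *Srd5a2*, although called in WT, was not called in the interaction (−0.63, 95% confidence interval −1.37 to 0.11, limma adjusted p = 0.117), but it was called without WT-DES sample 3 (−0.86, limma adjusted p = 0.0209). *Hsd11b2* (0.55, interval −0.55 to 1.65) was called with sample weights (1.42, limma adjusted p = 0.00333), and *Hsd17b4* (0.04, interval −0.18 to 0.26) with equal totals (0.59, limma adjusted p = 0.000117). *Srd5a3* (−0.10, interval −0.26 to 0.06) and *Hsd17b12* (−0.08, interval −0.50 to 0.35) were not called either.

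**Figure D4:**
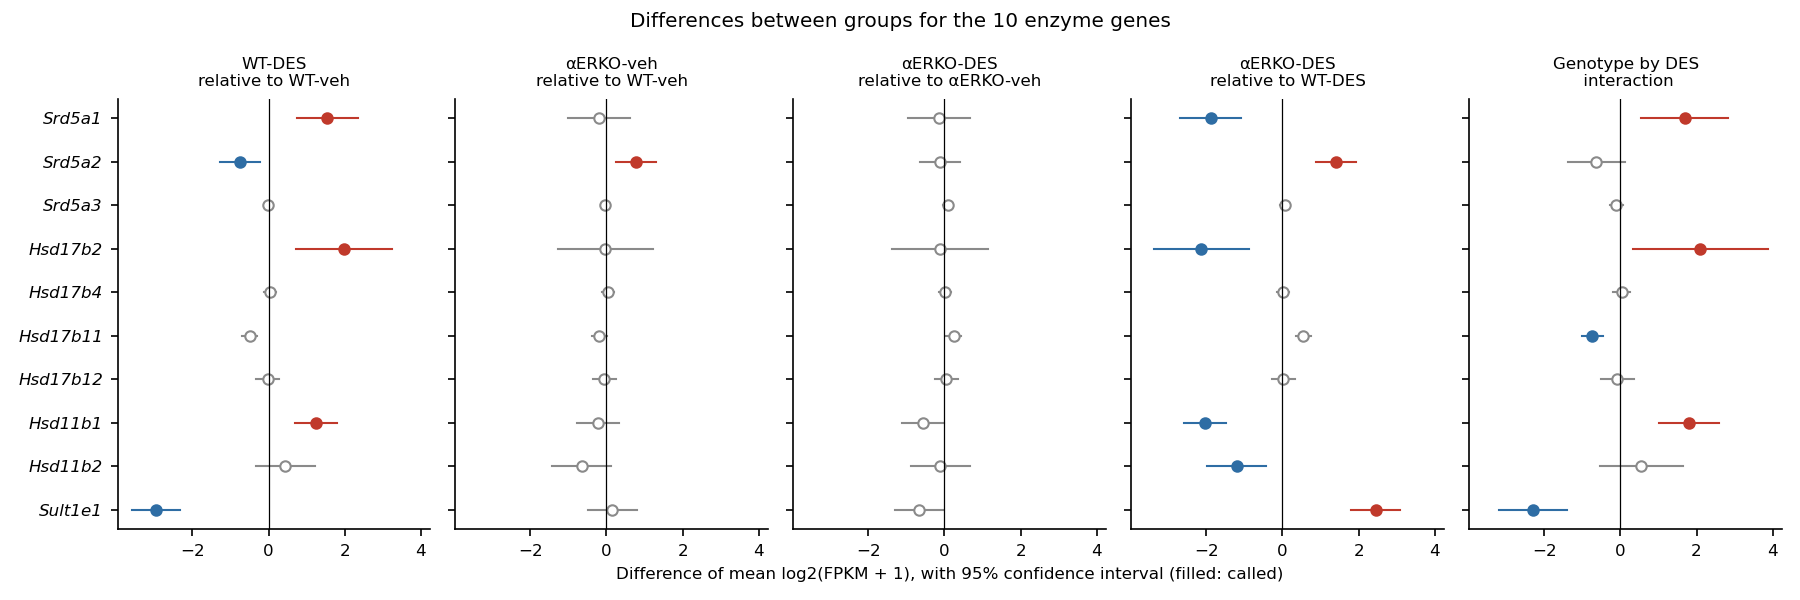
Differences of mean log2(FPKM + 1) with 95% confidence intervals for the 10 enzyme genes in 4 comparisons and in the interaction (effect of DES in WT less its effect in αERKO); filled points passed the rule for a DEG. In αERKO-DES relative to αERKO-veh no point is filled, and the intervals of *Hsd17b2* are the widest in each panel.

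The DES-treated genotypes compared with each other gave 6 of 10 enzymes as DEGs, beside 53.4% of all tested genes (23.7% higher, 29.6% lower). This comparison and the one between the wild-type groups share the WT-DES samples and are not independent. Relative to WT-DES, αERKO-DES was lower for *Srd5a1* (5.66-fold, log2 difference −1.88), *Hsd17b2* (log2 difference −2.13), *Hsd11b1* (5.04-fold, −2.02) and *Hsd11b2* (4.47-fold, −1.20), and higher for *Srd5a2* (2.70-fold, 1.40) and *Sult1e1* (10.4-fold, 2.45), with limma adjusted p from 2.89e-06 to 0.0079. Without WT-DES sample 1 the log2 difference was −1.32 for *Srd5a1* and −1.26 for *Hsd17b2*, both still called, and without WT-DES sample 3 the WT-DES mean of *Hsd11b2* was 2.88 rather than 4.77 FPKM and that of *Sult1e1* 0.54 rather than 0.838. Adipose (8 of 8), fibroblast (6 of 6), leukocyte (10 of 10), endothelial (5 of 5) and basal markers (3 of 4) were called lower in αERKO-DES as well, and SV secretory (8 of 8), smooth muscle (5 of 6), luminal (4 of 5), prostate (3 of 4) and skeletal muscle markers (2 of 9) higher. Their part in these values was not tested. The *Srd5a2* groups did not overlap here. Those of *Hsd11b2* did, since WT-DES sample 1 at 1.21 FPKM lay within the αERKO-DES samples, and its call was lost after quantile normalization (log2 difference −0.67, limma adjusted p = 0.132). Against vehicle-treated wild types, αERKO-DES had none of the 10 called in limma (3.18% of all tested genes were). At an unadjusted p of at most 0.05 there were 2, beside 4228 of all 15988 tested genes. They were *Hsd11b1* (log2 difference −0.78, limma adjusted p = 0.0729) and *Srd5a2* (0.65, limma adjusted p = 0.112). With only these groups in the fit 3 enzymes were called, beside 790 of all tested genes. They were *Srd5a2* (limma adjusted p = 0.0235), *Hsd11b1* (limma adjusted p = 0.0408) and *Hsd11b2* (log2 difference −0.76, limma adjusted p = 0.00941). In this comparison 6 of 8 adipose markers (median −3.32), 3 of 6 fibroblast markers (median −0.53) and 1 of 10 leukocyte markers were called lower, and no gene of the other marker lists was called. Between 4 and 6 adipose markers were called when any 1 sample was left out, with 4 without WT-veh sample 4, αERKO-DES sample 3 or αERKO-DES sample 4. Their part in these values was not tested.

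Levels in FPKM, which are per length, can be ordered across the enzymes. In WT-veh *Hsd17b11* stood first at a mean of 132.5 FPKM, then *Hsd17b12* at 48.6, *Hsd17b4* at 42.0, *Srd5a3* at 23.6, *Sult1e1* at 13.0, *Srd5a2* at 10.7, *Hsd11b1* at 7.62, *Srd5a1* at 6.82, *Hsd11b2* at 2.51 and *Hsd17b2* at 0.19. Neighbours whose samples overlapped in WT-veh were *Hsd17b12* and *Hsd17b4*, *Sult1e1* and *Srd5a2*, *Srd5a2* and *Hsd11b1*, and *Hsd11b1* and *Srd5a1*. In WT-DES the means of *Hsd17b11* (93.6 FPKM), *Hsd17b12* (48.4) and *Hsd17b4* (43.7) were again the highest, followed by *Srd5a1* (29.0), *Srd5a3* (23.3) and *Hsd11b1* (20.1), and *Sult1e1* (0.838) was last. The place of *Srd5a1* rested on WT-DES sample 1, without which its mean was 14.4 FPKM, under *Srd5a3* (23.4) and *Hsd11b1* (15.6). The spread among WT-DES samples differed between the enzymes, from a coefficient of variation of 0.736% for *Srd5a3* to 101% for *Srd5a1* and 159% for *Hsd17b2*. In WT-veh the same 3 genes had 3.94%, 15.1% and 75.0%.

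The rest of the machinery that makes, converts and senses steroids was described from lists of names. Each count below stands beside the shares over all tested genes given above, 52.7% called between the wild-type groups (28.9% higher, 23.9% lower), 7.12% for genotype alone, 1.49% for DES in αERKO and 56.4% in the interaction. Of the risers, *Akr1c19*, *Hsd17b14*, *Dhrs9*, *Ugt1a1* and *Pgr* were tested only because WT-DES was above 1 FPKM, so the counts of rises are partly fixed by the filter. Of 27 other hydroxysteroid dehydrogenases and steroid reductases, 11 were tested, of which 4 were higher and 4 lower in WT-DES relative to WT-veh (median log2 difference 0.06, beside −0.01 over all tested genes). After quantile normalization the count was 2 higher and 2 lower, with *Cbr1*, *Dhrs9*, *Hsd17b14* and *Hsd17b10* losing the call and *Hsd17b10* turning from −0.61 to 0.041. It was 5 higher and 2 lower with equal totals and 4 higher and 2 lower after the length correction. *Akr1c14*, the 3α-hydroxysteroid dehydrogenase that turns dihydrotestosterone into androstanediol, rose from 1.16 ± 0.165 FPKM in WT-veh (0.91 to 1.26) to 13.4 ± 6.45 in WT-DES (7.17 to 20.28), a log2 difference of 2.62 (limma adjusted p = 1.92e-07). Its relative *Akr1c19* rose from 0 to 0.14 FPKM in the WT-veh samples to 2.44 to 6.30 in WT-DES (log2 difference 2.02, limma adjusted p = 2.36e-07). The *Akr1c* genes are close copies of each other, and fragments may have been divided among them. *H2-Ke6*, the table's name for *Hsd17b8*, a mitochondrial enzyme of fatty acid synthesis that also oxidises oestradiol, fell from 90.3 ± 5.71 to 43.0 ± 2.75 FPKM (log2 difference −1.05, limma adjusted p = 8.16e-07). Carbonyl reductase *Cbr1* fell from 117 ± 9.16 to 63.5 ± 2.47 FPKM (log2 difference −0.87, limma adjusted p = 5.48e-07). None of the 11 was called for genotype alone or for DES in αERKO, and 7 were called in the interaction (4 higher, 3 lower). After quantile normalization the interaction count was 3 higher and 2 lower, with *Cbr1* (−1.05 to −0.32), *Hsd17b10* (−0.76 to 0.061) and *Hsd17b14* (1.49 to 0.97) losing the call. *Cbr1* and *Hsd17b10* also lost it with equal totals, and *Hsd17b10* after the length correction. *Hsd17b14* lost it when any 1 of 6 samples was left out (WT-veh samples 1, 2 and 3, αERKO-veh sample 4, and αERKO-DES samples 1 and 3), with limma adjusted p from 0.0522 to 0.0581.

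Of 14 genes that serve the synthesis of steroids from cholesterol, 9 were tested, and with DES in WT 4 fell and none rose (median log2 difference −0.49). The count depended on scaling. It was 2 lower and 2 higher after quantile normalization, where *Cyb5b*, *Fdx1* and *Stard3* lost the call. It was 2 lower and 2 higher with equal totals and 2 lower and 1 higher after the length correction, with *Fdx1* and *Stard3* losing the call in each. *Cyp21a1*, the adrenal 21-hydroxylase, went from 1.27 to 2.57 FPKM in WT-veh to 0.06 to 0.43 in WT-DES (log2 difference −1.24, limma adjusted p = 0.00405). It has a near-identical pseudogene copy, which makes its counting uncertain. *Cyb5b*, an outer mitochondrial cytochrome b5, fell from 138 ± 1.62 to 67.5 ± 8.04 FPKM (log2 difference −1.03, limma adjusted p = 5.5e-08). *Cyp19a1*, the aromatase that makes oestrogens, was listed at 0 in all WT-veh and αERKO-veh samples and at no more than 0.65 FPKM in any sample, and the testicular *Hsd17b3* at no more than 0.04.

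Among the genes of steroid conjugation, 10 of 20 were tested, and 4 were higher and 2 lower in WT-DES relative to WT-veh (median log2 difference −0.06). The risers were *Sult1a1* and the 3 tested glucuronosyltransferases, which attach glucuronic acid to steroids and bile pigments. *Ugt2b34* went from 0.69 to 1.43 FPKM in WT-veh to 6.29 to 36.04 in WT-DES (log2 difference 2.62, limma adjusted p = 5.08e-05), with sample 1 the highest, a 15.6-fold rise in the mean that was 7.63-fold without it. *Ugt1a6a* went from 4.93 to 6.46 FPKM to 18.33 to 75.03 (log2 difference 2.20, limma adjusted p = 9.17e-06), a 6.22-fold rise that was 3.81-fold without sample 1. The *Ugt1a* genes share most of their exons, so that the split of fragments between *Ugt1a6a* and *Ugt1a1* is uncertain. *Gusb*, the β-glucuronidase that removes the tag again, fell from 97.4 ± 2.95 to 39.8 ± 2.00 FPKM (log2 difference −1.27, limma adjusted p = 7.28e-09). *Sult1c2* was the gene of this list called in αERKO-veh, at 1.86 ± 0.339 FPKM against 0.940 ± 0.172 in WT-veh (log2 difference 0.55, limma adjusted p = 0.0161). It was tested only because the αERKO groups were above 1 FPKM, so that call is partly fixed by the filter.

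NADPH feeds the reductive steps, and 3 of the 6 genes of its supply rose and 1 fell in WT-DES (median log2 difference 0.41). *H6pd*, which serves *Hsd11b1*, rose from 17.1 ± 1.75 to 47.2 ± 12.7 FPKM (log2 difference 1.38, limma adjusted p = 2.68e-06). Malic enzyme *Me1* rose from 9.63 ± 4.17 to 29.1 ± 12.7 (log2 difference 1.47, limma adjusted p = 0.00122). *Slc37a4*, the carrier that brings glucose 6-phosphate to *H6pd*, fell from 21.2 ± 2.64 to 13.2 ± 1.17 FPKM (log2 difference −0.64, limma adjusted p = 6.85e-06), a call that was lost with equal totals or after a correction for transcript length. None of the 6 was called between the αERKO groups or in αERKO-veh relative to WT-veh.

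Of the steroid receptors 5 of 6 tested genes rose with DES in WT and none fell (median log2 difference 1.43). *Esr2*, left out by the filter, had means of 0.748 FPKM in WT-veh and 0.212 in WT-DES, and with no filter 5 genes were higher and 1 lower. *Pgr*, the progesterone receptor, went from 0.44 to 1.00 FPKM to 6.40 to 13.27 (log2 difference 2.64, limma adjusted p = 1.96e-08), and *Esr1* rose 3.68-fold (log2 difference 1.61, limma adjusted p = 2.69e-06). The glucocorticoid receptor *Nr3c1* (10.2 ± 1.75 to 27.2 ± 1.92 FPKM) and the mineralocorticoid receptor *Nr3c2* also rose, the latter call being lost after quantile normalization (log2 difference 0.051) and after the length correction (0.25). In αERKO-veh relative to WT-veh *Esr1* alone of the 6 was called (log2 difference −0.94, limma adjusted p = 0.00741).

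Of 10 genes known as targets of the glucocorticoid receptor, 4 fell and 1 rose with DES in WT (median log2 difference −0.31), beside the higher *Hsd11b1* and *Nr3c1*. *Sgk1*, a kinase that promotes sodium transport, fell from 488 ± 43.3 to 83.1 ± 36.7 FPKM (log2 difference −2.64, limma adjusted p = 8.65e-08), and the metallothionein *Mt2* fell from 475 ± 45.8 to 89.6 ± 59.4 (log2 difference −2.64, limma adjusted p = 5.6e-06). The phosphatase *Dusp1* rose from 18.3 ± 6.31 to 30.8 ± 12.4 FPKM (log2 difference 0.71, limma adjusted p = 0.0142), a call lost without WT-DES sample 1 (ratio of means 1.35) or without WT-veh sample 2. In αERKO-veh 3 of the list were higher than in WT-veh. *Fkbp5*, a co-chaperone of the receptor, stood at 79.7 ± 5.60 against 45.9 ± 11.1 FPKM (log2 difference 0.81, limma adjusted p = 0.00653) and at 15.2 ± 3.74 in WT-DES. The transcription factors *Zbtb16* (15.3 ± 2.07 against 5.98 ± 1.03, log2 difference 1.23, limma adjusted p = 0.000642) and *Klf9* (37.2 ± 5.90 against 22.1 ± 3.23, log2 difference 0.73, limma adjusted p = 0.00999) were the other two. As background, *Fkbp5* and *Sgk1* also respond to other steroid hormones and *Mt2* to metals.

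**Figure D5:**
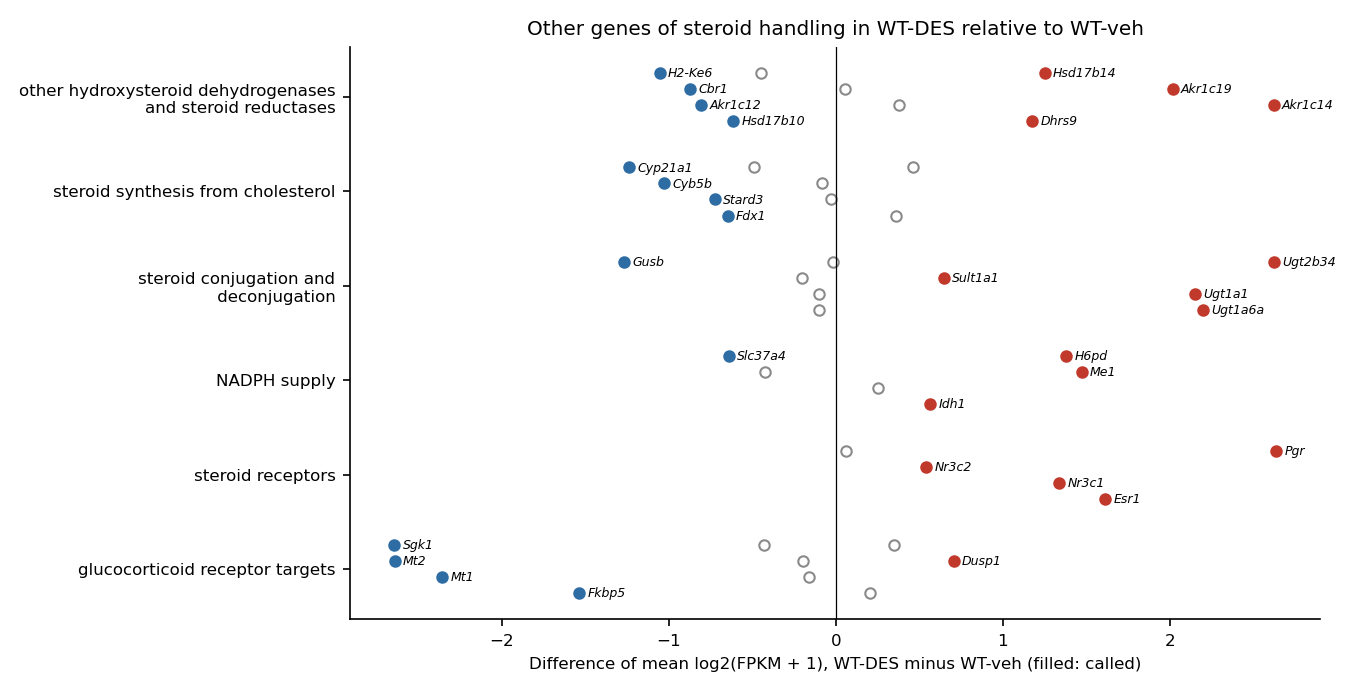
Differences of mean log2(FPKM + 1) between WT-DES and WT-veh for tested genes of 6 lists of steroid handling (2 tested genes are not drawn), 1 point per gene (n = 4 samples a group); filled and named points passed the rule for a DEG, red higher and blue lower. The called receptors lie to the right, from *Nr3c2* to *Pgr*, and *Sgk1* and *Mt2* lie farthest to the left.

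The genes outside the family with the most similar profiles over the 16 samples, by Pearson's r of log2(FPKM + 1), differed from enzyme to enzyme. For *Srd5a1* they were the uncharacterised *A530064D06Rik* (r = 0.991) and *Dnmt3l* (r = 0.989), a cofactor of DNA methylation with a mean of 0.865 FPKM in WT-veh and 7.09 in WT-DES. *Hsd17b2* was closest to *Ankfn1* (r = 0.995) and *Trem3* (r = 0.993). *Srd5a2* was closest to *Spock1* (r = 0.968) and *Trim2* (r = 0.967), *Hsd11b1* to *Adap1* (r = 0.978) and *Ccdc69* (r = 0.974), and *Hsd11b2* to the imprinted *Mest* (r = 0.931) and *Msx1os* (r = 0.918). *Sult1e1* was closest to *Tnnc2* (r = 0.952), the troponin C of fast skeletal muscle, whose mean was 228 FPKM in WT-veh and 8.38 in WT-DES, and 285 with vehicle and 145 with DES in αERKO, and to *Rab26* (r = 0.940), a secretory vesicle GTPase. *Hsd17b11* was closest to *Mblac1* (r = 0.966) and to *Urod* (r = 0.957), an enzyme of haem synthesis. The genes with little spread had weaker partners, *Bcar3* (r = 0.873) and *Ccdc126* (r = 0.791) for *Hsd17b4*, *Blvra* (r = 0.840) and *Dnajb4* (r = 0.828) for *Hsd17b12*, and *Hnrnpa0* (r = 0.707) and *Aldh16a1* (r = 0.701) for *Srd5a3*. These are descriptions over samples that share groups, and no test was made of them.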

How the data were processed

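Total RNA of SVs was sequenced, and how transcripts were selected is not given in the sources used here. Per the study's methods and the submitters' processing notes, the authors filtered paired-end reads on quality, aligned them to mm10 with TopHat2 2.0.4 and deposited FPKM values per gene from Cufflinks 2.0.2, 1 column per sample. Read counts and depth per sample are not known from FPKM, so no counting interval is given. Genes were fitted in limma 3.58.1 (R 4.3.3) on log2(FPKM + 1), with 1 mean per group over all 16 samples, a variance trend, no batch term and no further scaling. Genes with a mean above 1 FPKM in at least 1 group entered, and p-values were Benjamini-Hochberg adjusted over 15988 genes. FPKM differences on this scale understate the fold of low genes. The thresholds follow the study's rule for DEGs (adjusted p of at most 0.05, 1.5-fold, mean above 1 FPKM). The script was tested on simulated data. No 2 columns were identical.

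The 10 enzymes and all gene lists were chosen with earlier results of these data known. Named genes were all 10 enzymes, *Esr1*, from each list the 2 largest rises and 2 largest falls among DEGs for DES in WT and any gene called for genotype or for DES in αERKO, and the 2 most similar genes for each enzyme. *Nr3c1*, *Nr3c2*, *Sult1a1*, *Ugt1a1*, *Cyp19a1*, *Hsd17b3*, *Hsd17b10*, *Hsd17b14*, *Dhrs9*, *Fdx1*, *Stard3* and *Esr2* were added after their values were seen. *Sts* was not analysed here, and 2 listed genes enter the counts but are not reported here by name. Promoters came from RefSeq, and gene models in the length correction from GENCODE M21 on GRCm38.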

Additional observations from a re-analysis of the deposited data

Results flagged for a closer look

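Of the 40 sets of 4 samples (10 enzymes in 4 groups), 5 held a sample far from the other 3, where chance alone gives about 1 in 20. WT-DES sample 1 accounted for 3 of them, with *Srd5a1* at 72.98 FPKM, *Hsd17b2* at 27.57 and *Hsd11b1* at 33.47, each the highest of its group. The same sample had smooth muscle markers at 3580 FPKM against 791 to 1256 in the other WT-DES samples, a level within the 2993 to 3734 of WT-veh, while its fibroblast markers (2091 FPKM) were as high as in the rest of WT-DES. The remaining cases were small in size. *Srd5a1* was at 6.82 FPKM in αERKO-veh sample 4 against 5.43 to 5.54 in the others, and *Hsd17b2* at 0.25 FPKM in αERKO-DES sample 2, beside 2 samples listed at 0.

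The change with DES differed between the genotypes for 5 enzymes by the interaction in limma. Taking the log2 effect of DES in αERKO from that in WT gave 1.81 for *Hsd11b1*, −0.74 for *Hsd17b11*, 2.10 for *Hsd17b2*, 1.69 for *Srd5a1* and −2.29 for *Sult1e1*.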

How the results depend on the processing

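In refits of the 17 called values of single enzymes (487 in all), 457 kept the call and its sign, 29 lost the call and 1 changed sign, *Hsd17b11* in the interaction after quantile normalization (0.056). Of 1237 refits of the 43 values not called, 20 were called. Below, the comparisons are named WT (DES in WT), genotype (vehicle groups), αERKO (DES in αERKO), DES-treated (both genotypes with DES), cross (αERKO-DES against WT-veh) and interaction. Leaving out each sample in turn gave 5 enzymes for WT each time, 0 to 1 for genotype, 0 for αERKO, 6 to 7 for DES-treated, 0 to 2 for cross and 4 to 6 for interaction. With only the groups compared in the fit the counts were 3 for WT, 2 for genotype and 3 for cross. With sample weights, whose estimation stopped short of its tolerance, they were 2 for αERKO and 2 for cross. For genotype, no filter, quantile normalization or an adjusted p of at most 0.01 left 0, and for interaction the last 2 left 3 each. The mean log2 ratio of *Hsd11b1* to *Hsd11b2* moved to 2.28 in αERKO-veh and 1.78 in αERKO-DES with a pseudocount of 0.1. The causes were not tested. FPKM summed to 375207 to 437619 in WT-DES and to 479045 to 652708 elsewhere. Equal totals moved the median log2 difference of all genes to 0.37 for WT, 0.11 for genotype, −0.32 for DES-treated and 0.50 for interaction. The share of DEGs that were higher then went from 54.7% to 78.6% for WT, 63.1% to 92.3% for genotype, 44.5% to 24.2% for DES-treated, 38.0% to 51.8% for cross (59.2% after quantile normalization) and 52.4% to 78.3% for interaction. Counts over all genes were least stable for αERKO, with 239 DEGs against 6 with only the groups compared, 5 after quantile normalization, 2 at an adjusted p of at most 0.01, 133 with a mean above 5 FPKM, 150 with no filter, 401 with a pseudocount of 0.1, 452 with no fold threshold and 1119 with sample weights, and 1 to 653 with a sample left out. For genotype 1139 became 451 with the length correction, 402 at an adjusted p of at most 0.01 and 4150 with no fold threshold (418 to 1690 with a sample left out), and for cross 508 became 790 with only the groups compared, 1002 with sample weights, 156 at an adjusted p of at most 0.01 and 1281 with no fold threshold (199 to 883 with a sample left out). The lower call of *Cbr1* was lost under equal totals and those of *Cbr1* and *Cyb5b* after quantile normalization, with the sign kept. Same-numbered samples did not deviate together (24 pairs, r from −0.21 to 0.28, 3 over 0.1), so the numbers were not read as pairs. A replicate block gave 5, 1, 0, 6, 0 and 5 enzymes in the 6 comparisons in the order named, as without it. Low genes such as *Hsd17b2* are limited by an unknown depth.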
